A study of Mus musculus with 9 samples.

Results

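Tuft cells are rare chemosensory cells of the intestinal epithelium. They carry a tuft of long microvilli, sense signals from the lumen through a taste-like cascade that ends in the cation channel TRPM5, and answer with the cytokine IL-25 and with lipid mediators such as leukotrienes. IL-25 acts on type 2 innate lymphoid cells, whose IL-13 in turn acts on the crypt and favours new tuft and goblet cells. The fate depends on the transcription factor POU2F3.

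The genes described here are 9 named tuft cell markers, taken by gene symbol from a deposited table of 24930 genes. They are Pou2f3, the lineage's transcription factor; Trpm5, the taste channel; Rgs13, a regulator of G protein signalling; Alox5ap and Ltc4s, which act in leukotriene synthesis; Il25, the cytokine; Avil (advillin) and Dclk1 (doublecortin-like kinase 1), which encode an actin-binding protein and a microtubule-associated kinase; and Sh2d6, an SH2 domain adaptor. Of these 9, 8 matched a row, 7 passed a filter of at least 1 FPKM in at least 3 libraries, and Il25 did not pass it. Sh2d6 was not analysed here.

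RNA came from mouse intestinal epithelium, described in the design text as crypt cells, at days 8, 9 and 10 after induction of 1 gain-of-function allele of β-catenin (Ctnnb1). There were 3 libraries titled Bcathet, 3 titled Cdx2het_Bcathet and 3 titled Control, each group having 1 library for every day. By title, Cdx2 heterozygosity belongs to Cdx2het_Bcathet alone, whereas the library names write CDX2HET and EXON3 for the libraries titled Bcathet and EXON3 alone for those titled Cdx2het_Bcathet. Which set carries the Cdx2 allele is therefore in conflict, and the sets are named by their titles. The labels give no strain, age, sex or Cre driver, and do not say what the Control animals carry. The labels do not say how many animals the libraries came from, so every p-value below reflects only how these libraries vary, across days and in part perhaps technically.

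Epcam, an epithelial adhesion gene, stood at 703 to 794 FPKM in all 9 libraries. FPKM counts sequenced fragments per kilobase of transcript, scaled to the size of the library, and 1 FPKM rested on about 16.7 to 19.1 fragments per kilobase here. Cdx2 averaged 134 ± 9.28 FPKM in Bcathet, 187 ± 8.60 in Cdx2het_Bcathet and 120 ± 16.6 in Control (SD, n = 3 each). The set titled as heterozygous for Cdx2 thus had the highest Cdx2 RNA, each library lying above every Bcathet and Control library. Which set carries the allele was not tested. The day-9 Cdx2het_Bcathet library stood apart: Xist, which females express, was at 0.1002 FPKM there, against 27.0 to 39.4 elsewhere. In the same library 4 Y-linked genes summed to 41.7 FPKM, and in the other 8 libraries to no more than 0.047. Results that rest on this library are given with and without it.

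POU factors such as POU2F3 bind an octamer, ATGCAAAT. The 250 bases before the annotated start are shown for a few chosen genes, all but Trpm5 with a match. They are Avil and Trpm5 among the markers, and Kctd12, Hpgds and 1810046K07Rik from a wider list of tuft cell genes described below. The last 3 were octamer genes whose levels followed those of the markers, so the display does not show how often matches occur. Capitals mark the octamer or its first 7 bases, ATGCAAA, on either strand. The sequences are from RefSeq on GRCm38.p6, 5′ to 3′ on the gene's strand, and the submitters' processing notes name another build.
Avil chr10:127000459-127000708 (+): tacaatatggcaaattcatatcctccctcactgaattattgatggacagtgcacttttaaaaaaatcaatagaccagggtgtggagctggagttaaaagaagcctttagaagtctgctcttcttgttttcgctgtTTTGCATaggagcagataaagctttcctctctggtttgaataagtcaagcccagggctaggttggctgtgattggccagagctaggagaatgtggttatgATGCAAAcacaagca
Trpm5 chr7:143094643-143094892 (-): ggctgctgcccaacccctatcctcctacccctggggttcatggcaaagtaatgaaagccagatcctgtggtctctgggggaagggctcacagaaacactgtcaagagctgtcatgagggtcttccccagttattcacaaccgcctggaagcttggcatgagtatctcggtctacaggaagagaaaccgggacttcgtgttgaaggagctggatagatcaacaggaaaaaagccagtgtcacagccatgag
Kctd12 chr14:102982638-102982887 (-): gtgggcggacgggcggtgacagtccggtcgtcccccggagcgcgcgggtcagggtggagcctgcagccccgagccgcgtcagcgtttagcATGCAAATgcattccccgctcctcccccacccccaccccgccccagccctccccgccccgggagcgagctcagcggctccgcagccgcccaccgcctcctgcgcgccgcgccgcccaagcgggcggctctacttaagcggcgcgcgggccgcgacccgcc
Hpgds chr6:65144731-65144980 (-): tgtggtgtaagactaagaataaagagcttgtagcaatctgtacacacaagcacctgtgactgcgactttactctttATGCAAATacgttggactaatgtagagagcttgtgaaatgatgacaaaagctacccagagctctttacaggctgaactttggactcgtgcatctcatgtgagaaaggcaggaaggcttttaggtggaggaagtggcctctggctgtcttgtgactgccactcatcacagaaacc
1810046K07Rik chr9:51328919-51329168 (-): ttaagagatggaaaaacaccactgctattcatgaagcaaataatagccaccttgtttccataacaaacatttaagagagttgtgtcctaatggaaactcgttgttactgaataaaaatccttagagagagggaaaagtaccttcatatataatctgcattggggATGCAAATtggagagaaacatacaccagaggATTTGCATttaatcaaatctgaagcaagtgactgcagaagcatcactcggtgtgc
RefSeq windows matched 6 of the 9 markers (Avil, Dclk1, Ltc4s, Rgs13, Sh2d6 and Trpm5) in 7 windows. None of the 7 held the octamer. The 7-base form occurred in Avil alone, once on each strand. Among 32851 windows of the same length in the whole table, 1.6% held the octamer and 4.12% the 7-base form, which includes every octamer. A match describes letters and not a bound site.

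Across the 7 genes that passed the filter, levels were about as high as in Control in some mutant libraries and far below it in others. Both day-10 mutant libraries and the day-8 Cdx2het_Bcathet library were low, and the day-9 Cdx2het_Bcathet library was within or near the Control range. In bulk RNA, fewer tuft cells and less RNA per tuft cell cannot be told apart.

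Pou2f3, the transcription factor without which mice lack tuft cells, was at 3.00, 3.14 and 1.31 FPKM at days 8, 9 and 10 in Bcathet, at 1.68, 4.56 and 1.30 in Cdx2het_Bcathet, and at 2.62, 3.58 and 4.92 in Control. The 2 day-10 mutant libraries and the day-8 Cdx2het_Bcathet library lay below every Control library, and the other 3 mutant libraries lay inside the Control range. Means were 2.48 ± 1.02 FPKM in Bcathet, 2.52 ± 1.78 in Cdx2het_Bcathet and 3.71 ± 1.15 in Control (SD, n = 3 each). The log2 fold change of both mutant sets over Control, on log2(FPKM + 1), which understates the change of low genes, was −0.48 ± 0.32 (SE) and did not pass (limma, adjusted p = 0.437).

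Trpm5, the channel that depolarises taste and tuft cells, was at 4.86, 4.28 and 1.33 FPKM in Bcathet, at 2.34, 6.32 and 1.63 in Cdx2het_Bcathet, and at 5.28, 6.84 and 7.97 in Control. All mutant libraries but the day-9 Cdx2het_Bcathet library lay below every Control library. The mean was 3.46 ± 2.00 FPKM over the mutants (SD, n = 6) and 6.70 ± 1.35 in Control (SD, n = 3), with a log2 fold change of −0.90 ± 0.39 (limma, adjusted p = 0.239). Rgs13, whose product shortens G protein signals, was at 3.36, 2.38 and 0.892 FPKM in Bcathet, at 1.92, 3.80 and 1.02 in Cdx2het_Bcathet, and at 3.25, 4.58 and 3.94 in Control. Of its 6 mutant values, 4 lay below every Control library, and its log2 fold change was −0.69 ± 0.32 (limma, adjusted p = 0.273). Its lowest value, at day 10 in Bcathet, rested on about 23.2 fragments if the longest annotated transcript is assumed, the fewest among the 7 genes.

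The leukotriene genes had the highest group means, although Avil exceeded Alox5ap in both day-10 mutant libraries. Ltc4s, the synthase of leukotriene C4, was at 10.6, 12.1 and 5.26 FPKM in Bcathet, at 5.30, 17.3 and 4.44 in Cdx2het_Bcathet, and at 14.2, 14.7 and 17.1 in Control. Its Control libraries were close together, at 15.3 ± 1.51 FPKM (SD, n = 3), and 5 of 6 mutant libraries lay below all of them, while the day-9 Cdx2het_Bcathet library lay above all of them. The log2 fold change was −0.83 ± 0.40 (limma, adjusted p = 0.28). Alox5ap, which presents arachidonic acid to 5-lipoxygenase, was at 7.76, 7.53 and 2.12 FPKM in Bcathet, at 4.11, 11.9 and 2.97 in Cdx2het_Bcathet, and at 6.06, 11.5 and 15.4 in Control. Its Control libraries spanned more than those of Ltc4s, so 3 of 6 mutant libraries lay below them all (log2 fold change −0.85 ± 0.49, limma, adjusted p = 0.364).

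Of the structural genes, Avil, whose product binds actin in the microvillar tuft, was at 7.10, 5.74 and 2.87 FPKM in Bcathet, at 4.11, 8.09 and 3.07 in Cdx2het_Bcathet, and at 5.76, 7.48 and 11.3 in Control. Dclk1, the marker most used to stain mouse tuft cells, was at 2.41, 2.05 and 0.556 FPKM in Bcathet, at 1.23, 3.29 and 0.722 in Cdx2het_Bcathet, and at 2.44, 3.25 and 4.66 in Control. For Dclk1, 5 of 6 mutant libraries lay below every Control library, with the day-8 Bcathet value only just under the day-8 Control value. Avil had 4 of 6 below. The log2 fold change was −0.78 ± 0.35 for Dclk1 (limma, adjusted p = 0.255) and −0.61 ± 0.33 for Avil (adjusted p = 0.333).

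**Figure D1:**
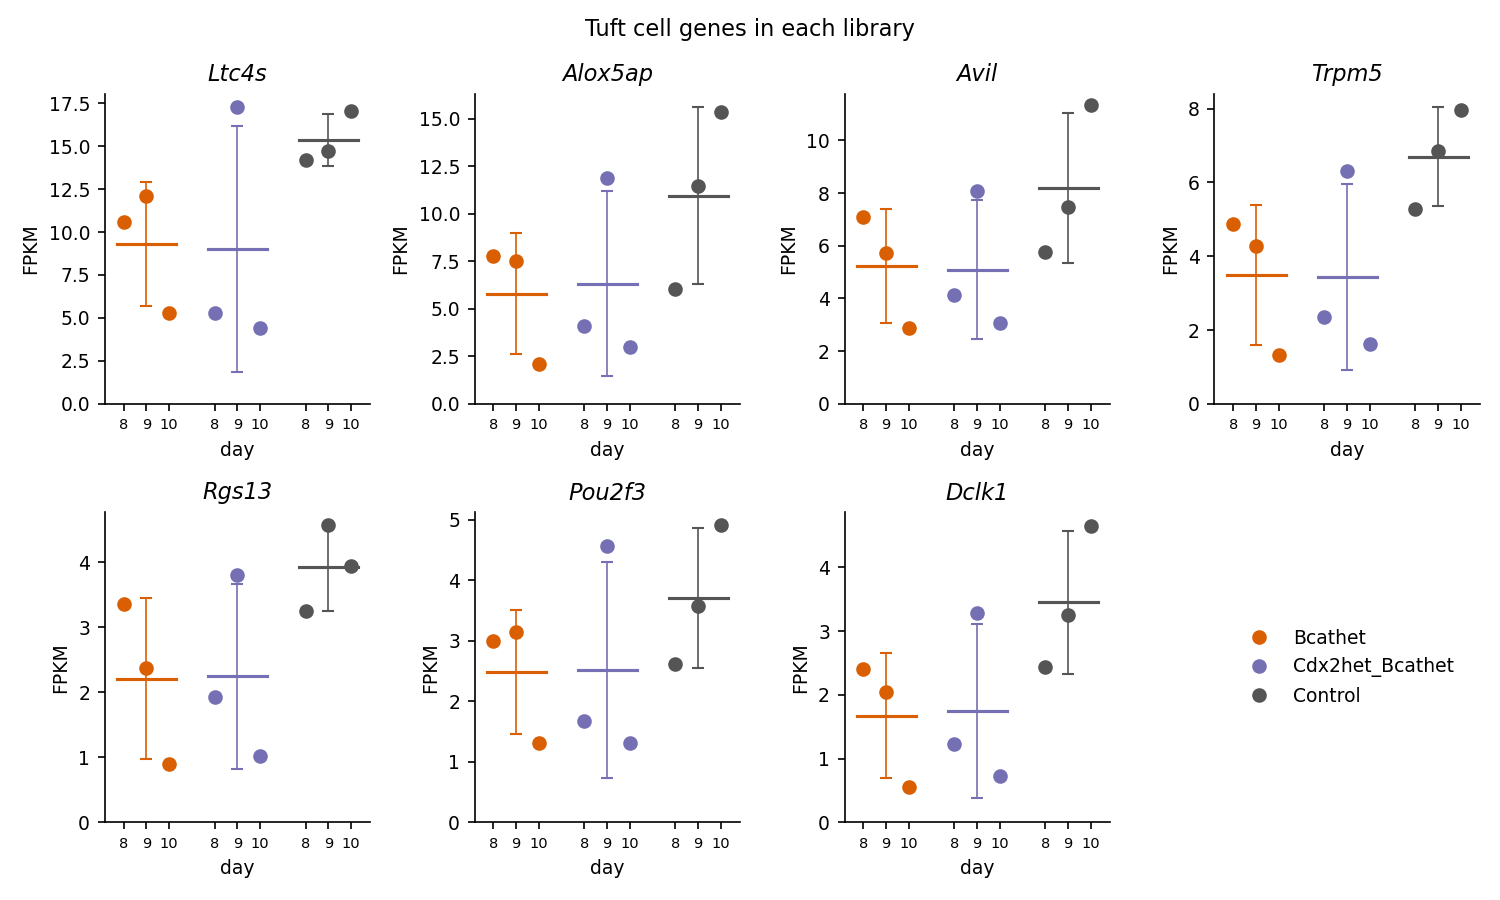
FPKM of the 7 tuft cell genes in each of the 9 libraries, by day within the Bcathet, Cdx2het_Bcathet and Control groups; points are libraries, horizontal lines are group means and vertical bars are SD (n = 3). The day-10 points of both mutant sets lie below every Control point for each of the 7 genes, and the day-9 Cdx2het_Bcathet point lies near or inside the Control range.

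Il25, the tuft cell cytokine, was listed at 0 in 8 libraries and at 0.114 FPKM in the day-9 Cdx2het_Bcathet library, which corresponds to about 2.27 fragments. It could not be compared at this depth (two-sided exact permutation test over 6 mutant and 3 Control libraries, p = 1).

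Because FPKM is scaled per length, the 7 genes can be ordered by level. In Control the order was Ltc4s at 15.3 ± 1.51, Alox5ap at 11.0 ± 4.67, Avil at 8.19 ± 2.86, Trpm5 at 6.70 ± 1.35, Rgs13 at 3.92 ± 0.664, Pou2f3 at 3.71 ± 1.15 and Dclk1 at 3.45 ± 1.12 FPKM (SD, n = 3 each). Between neighbours in this order, only Trpm5 and Rgs13 had library ranges that did not overlap. The sum of the 7 ranged from 14.3 to 39.1 FPKM in Bcathet, from 15.2 to 55.3 in Cdx2het_Bcathet and from 39.6 to 65.2 in Control. Ltc4s made up 25.6% to 36.7% of that sum across the 9 libraries, Trpm5 9.31% to 13.3% and Dclk1 3.88% to 7.14%. On log2(FPKM + 1) over the 9 libraries, Pearson's r between pairs of the 7 genes ran from 0.907 (Pou2f3 with Rgs13) to 0.992 (Dclk1 with Trpm5), as a description, since all genes of a library share its cells and depth.

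The mutant sets were first pooled and set against Control. All 7 fold changes were negative, from −0.48 (Pou2f3) to −0.90 (Trpm5), with a median of −0.78, against a median of 0.00 over the 12097 genes tested. None of the 7 passed an adjusted p of 0.05 in limma (adjusted p = 0.239 to 0.437) and 0 had an unadjusted p under 0.05. Over all genes, 0.645% were called lower and 0.513% higher; with libraries rescaled to equal totals the counts were 133 higher and 36 lower, against 62 and 78 as deposited. Likewise, no gene of the 7 had every mutant library below every Control library, a pattern that 7.37% of all genes showed.

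The number that passed changed only when the day-9 Cdx2het_Bcathet library was left out. Among the mutant libraries it had the highest value of each of the 7 genes. Leaving it out therefore moves every estimate further below 0 by construction. Without it, Ltc4s fell in the mutants by 1.10 ± 0.24 on the log2 scale (limma, adjusted p = 0.0406, with a range of 0.0406 to 0.785 over 14 alternatives), and 1 of 7 genes was called where 3.61% of all genes were called lower. The other 6 did not pass, at log2 fold changes of −0.67 to −1.12 and adjusted p of 0.0777 to 0.152, although all 7 had an unadjusted p under 0.05, as did 3318 of the 12097 genes tested. Without the 3 day-10 libraries, an alternative chosen after seeing the data, the median of the 7 was −0.28 and none passed (adjusted p = 0.683 to 0.98; 0 with an unadjusted p under 0.05).

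**Figure D2:**
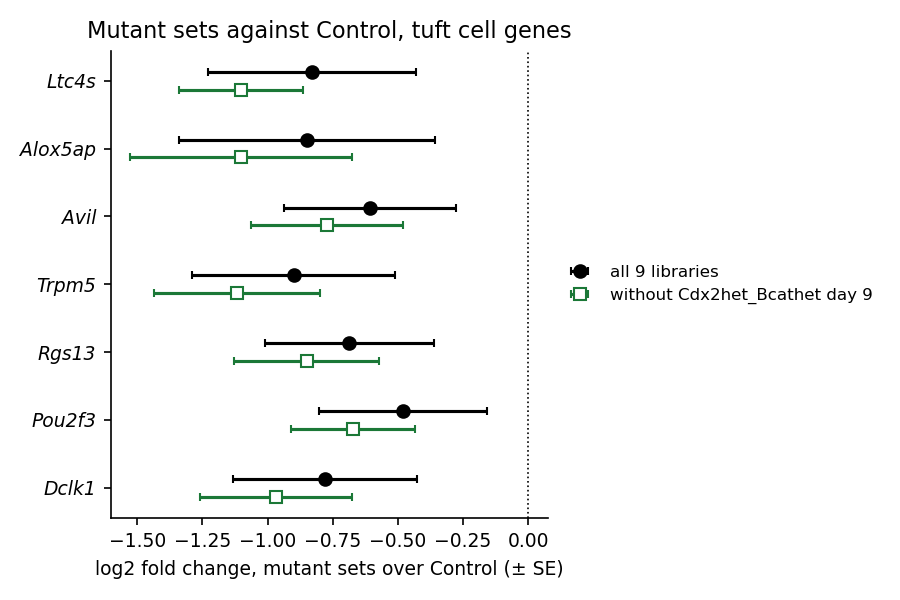
Log2 fold change of both mutant sets over Control for the 7 tuft cell genes, ± SE from limma, with all 9 libraries (filled circles) and without the day-9 Cdx2het_Bcathet library (open squares). Every estimate is below 0, and without that library the estimates are further from 0, with Ltc4s at −1.10 ± 0.24.

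Each set was also compared with the same 3 Control libraries. In Bcathet the 7 fold changes ran from −0.45 (Pou2f3) to −0.88 (Alox5ap), and none passed (limma, adjusted p = 0.378 to 0.572; 0 with an unadjusted p under 0.05; 0.0909% of all genes called lower and 0.124% higher). Without the day-9 Cdx2het_Bcathet library, which enters this fit through the shared spread, still none passed (limma, adjusted p = 0.194 to 0.375, with 0.389% of all genes called lower and 0.637% higher). There 3 of the 7 had an unadjusted p under 0.05, as did 2446 of the 12097 genes tested. In Cdx2het_Bcathet the 7 fold changes ran from −0.51 (Pou2f3) to −0.93 (Ltc4s), and none passed (limma, adjusted p = 0.35 to 0.532, 0 with an unadjusted p under 0.05, with 0.24% of all genes called lower and 0.389% higher). Without the day-9 library, Ltc4s fell in Cdx2het_Bcathet by 1.48 ± 0.30 (limma, adjusted p = 0.0459, with a range of 0.0459 to 0.85 over 15 alternatives), where 1.41% of all genes were called lower and 2.54% higher.

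The difference between the sets was tested directly. Cdx2het_Bcathet minus Bcathet was −0.06 ± 0.45 for Trpm5 (95% interval −1.09 to 0.98), −0.20 ± 0.46 for Ltc4s (−1.26 to 0.86) and −0.05 ± 0.37 for Pou2f3 (−0.91 to 0.81) on the log2 scale. The 7 genes lay between −0.20 and 0.06 and none passed (limma, adjusted p = 1 for each). Over all genes 0% were called in either direction, with 376 of 12097 at an unadjusted p under 0.05. Without the day-9 Cdx2het_Bcathet library all 7 differences were negative, from −0.32 ± 0.35 (Rgs13) to −0.75 ± 0.30 (Ltc4s). None of the 7 passed there (limma, adjusted p = 0.981 for each). In that fit 1 of the 7 had an unadjusted p under 0.05, as did 535 of the 12097 genes tested. The intervals with all 9 libraries allow differences of about the size of those between the sets and Control.

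Within each group the levels differed between days. In Control, the day-10 library had the highest value of the 3 for each of the 7 genes except Rgs13, which was highest at day 9, and Alox5ap at day 10 was at 253% of its day-8 level. At day 8, the 7 genes stood at 74.4% to 128% of the Control library of the same day in Bcathet (median 103%) and at 37.3% to 71.5% in Cdx2het_Bcathet (median 59.2%). At day 9 they stood at 52.0% to 87.6% in Bcathet (median 65.5%) and at 83.0% to 127% in Cdx2het_Bcathet (median 104%). At day 10 they stood at 11.9% to 30.8% in Bcathet (median 22.6%) and at 15.5% to 27.1% in Cdx2het_Bcathet (median 25.8%). Over all tested genes with a value above 0 in the same-day Control library, the median was 98.5% to 101% in each of the 6 mutant libraries. Such a median depends on how the libraries were scaled. In the pooled comparison, 50.3% of all fold changes were negative as deposited and 41.7% with libraries rescaled to equal totals. Each day has 1 library per group, so the same-day percentages have no replicate check.

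**Figure D3:**
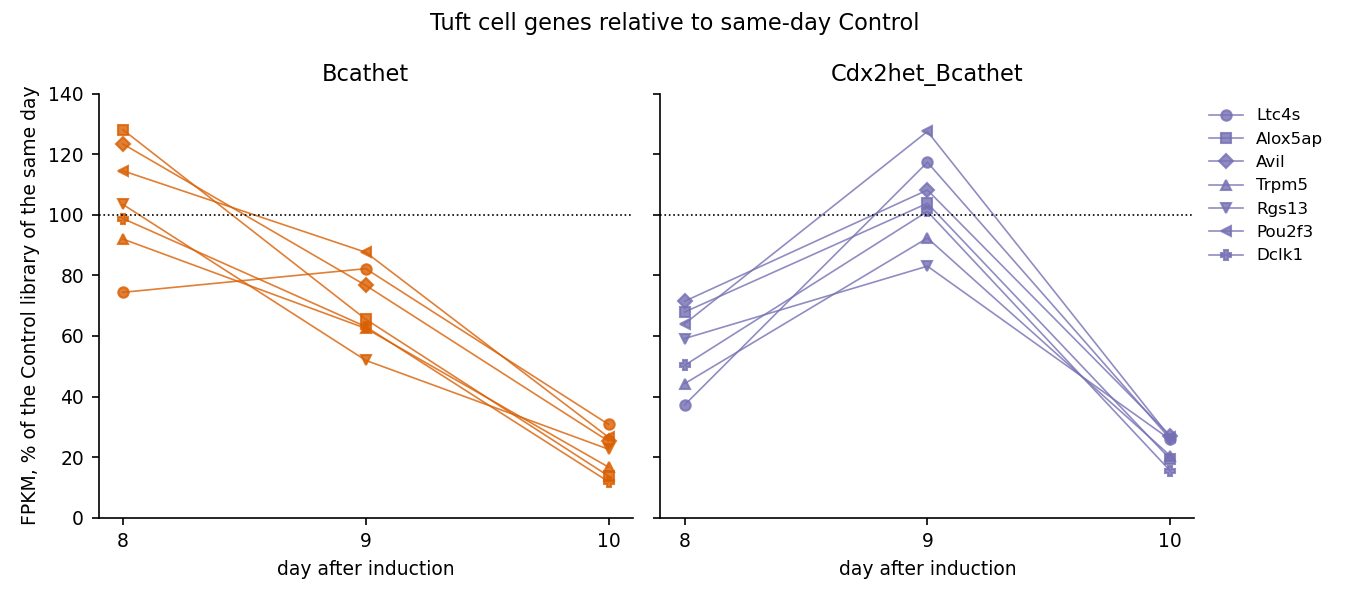
FPKM of the 7 tuft cell genes in Bcathet (left) and Cdx2het_Bcathet (right) as a percentage of the Control library of the same day; each line is a gene, each point 1 library, and the dotted line marks 100%. At day 10 all 7 genes lie between 11.9% and 30.8% in both sets, while at day 9 the sets differ.

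A trend over days was tested with a common slope for both mutant sets and a slope for Control. The mutant slope ran from −0.25 (Pou2f3) to −0.46 (Alox5ap) log2 units per day, with −0.43 ± 0.19 for Rgs13, and none of the 7 passed (limma, adjusted p = 0.759 to 0.823; 0 with an unadjusted p under 0.05). The mutant slope minus the Control slope was negative for all 7, from −0.40 ± 0.53 for Ltc4s to −1.07 ± 0.53 for Alox5ap, and none passed (limma, adjusted p = 0.818 to 0.911; 0 with an unadjusted p under 0.05). In both tests 0% of all genes were called in either direction. The counts at an unadjusted p under 0.05 over all genes were 717 and 696. Without the day-9 Cdx2het_Bcathet library the same slopes did not pass either (adjusted p = 0.41 to 0.632), while 4 of the 7 mutant slopes and 6 of the 7 differences had an unadjusted p under 0.05, against 1380 and 1158 of the 12097 genes tested.

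A wider list of 50 other genes known from tuft cells was read beside these markers. Of the 50, 48 had a row and 36 passed the filter. None of the 36 passed in the comparison of both mutant sets with Control (limma, adjusted p = 0.0719 to 0.966; 14 with an unadjusted p under 0.05, against 2537 of the 12097 genes tested). Their median log2 fold change was −0.39, with 29 of 36 negative, against 50.3% of all genes tested. Without the day-9 Cdx2het_Bcathet library 7 were called lower, among 3.61% of all genes, and 1 was called higher, among 4.6%. The 7 include Plcb2 and Ptgs1, which in that fit reached the filter's cut of 1 FPKM only in Control libraries.

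Among signalling and transcription genes, Spib, an ETS factor chosen after its values were seen, was at 1.22 and 1.24 FPKM in the day-10 Bcathet and Cdx2het_Bcathet libraries, against 10.1 in day-10 Control. Plcb2, the phospholipase of the taste cascade, was at 0.136 to 0.731 FPKM in Bcathet, 0.214 to 1.13 in Cdx2het_Bcathet and 1.01 to 1.67 in Control. Both genes shared the low day-10 mutant values of the markers. Gfi1b, a transcriptional repressor, did not pass the filter and was at 0.109 and 0.144 FPKM in the day-10 Bcathet and Cdx2het_Bcathet libraries, against 1.15 in day-10 Control. Gnat3, the taste G protein gustducin, was at most 0.32 FPKM in any library.

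Among other genes of eicosanoid synthesis, Alox5, which encodes 5-lipoxygenase, was at 1.21, 0.938 and 0.484 FPKM in Bcathet, at 0.277, 1.99 and 0.168 in Cdx2het_Bcathet, and at 2.12, 4.42 and 6.35 in Control. All 6 mutant libraries lay below every Control library. That pattern held for 2 of the 36 tested genes of the wider list, Alox5 included, and for 7.37% of all tested genes. The log2 fold change of Alox5 was −1.52 ± 0.37 (limma, adjusted p = 0.0827), and −1.73 ± 0.27 without the day-9 Cdx2het_Bcathet library (adjusted p = 0.0173, with a range of 0.0173 to 0.506 over 14 alternatives). Ptgs1, a cyclooxygenase, had a log2 fold change of −0.65, and Hpgds, a prostaglandin D synthase, one of −0.28. Neither passed with all 9 libraries (limma, adjusted p = 0.234 and 0.538). Without the day-9 Cdx2het_Bcathet library Ptgs1 fell by 0.82 ± 0.20 (adjusted p = 0.0459, with a range of 0.0459 to 0.741 over 14 alternatives), and Hpgds did not pass (−0.39 ± 0.22, adjusted p = 0.296). In that fit 3.61% of all genes were called lower. The mutant values of Ptgs1 left in it, 0.103 to 0.804 FPKM, all lay under the filter's cut of 1 FPKM. There Ptgs1 met the cut only in its Control libraries, at 1.20 to 1.81 FPKM.

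At the cell surface, Siglecf, a sialic acid-binding lectin, was at 0.332 to 1.55 FPKM in Bcathet, 0.355 to 2.41 in Cdx2het_Bcathet and 1.79 to 3.60 in Control. Il17rb, a subunit of the IL-25 receptor, was at 0.712 to 1.27, 0.782 to 1.85 and 1.20 to 2.10 FPKM in the same groups. Il13, Il4 and Il9, type 2 cytokine genes, were listed at 0 in every library, and Il5 was at most 0.0413 FPKM. Il4ra, the receptor chain shared by IL-4 and IL-13 and named after its values were seen, was higher in all 6 mutant libraries, at 12.5 to 30.1 FPKM, than in Control, at 8.38 to 10.51. Of the 12097 genes tested, 628 were higher in every mutant library than in every Control library. Il4ra did not pass with all 9 libraries (log2 fold change 1.05 ± 0.26, limma, adjusted p = 0.084) and rose without the day-9 Cdx2het_Bcathet library (1.20 ± 0.19, adjusted p = 0.02), where 4.6% of all genes were called higher.

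Not every gene of the wider list shared the pattern. At day 10, 20 of the 36 stood under 50% of same-day Control in both sets, and 5 stood above 100% in both. How many of all tested genes met these cuts was not counted. Skap2 and Ptpn18, named after their values were seen, were at 37.5 and 56.2 FPKM in day-10 Bcathet and at 36.4 and 58.8 in day-10 Cdx2het_Bcathet, against 22.7 and 44.1 in day-10 Control. Of the 12 genes under the filter, none above 2.54 FPKM in any library, 10 were lower in both day-10 mutant libraries than in day-10 Control. Among tested genes with a value above 0 in day-10 Control, 48.8% were lower in day-10 Bcathet and 49.6% in day-10 Cdx2het_Bcathet.

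**Figure D4:**
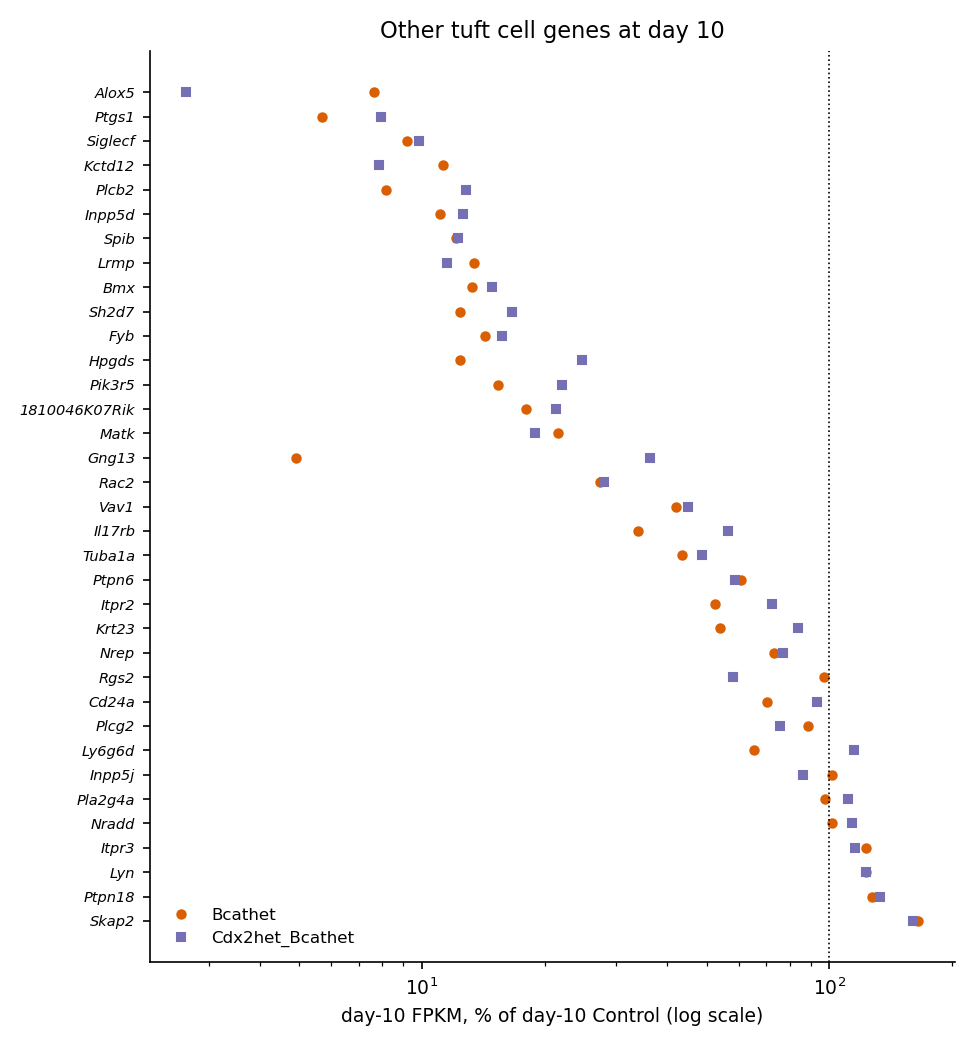
Day-10 FPKM of other tuft cell genes that passed the filter, 1 gene left out, as a percentage of the day-10 Control library on a log axis, in Bcathet (circles) and Cdx2het_Bcathet (squares). Of all 36 tested genes, the left-out one included, 20 were under 50% in both sets and 5 above 100% in both. The share of all tested genes at these cuts was not counted.

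The genes whose pattern was most like that of the 7 markers were found by Pearson's r with the mean z-score of the 7 over the 9 libraries, among 12097 genes. The 25 highest held the 7 markers themselves, which enter the score, 12 genes of the wider tuft list and 6 others, all with r of at least 0.96. The 12 included Pik3r5, Fyb, Spib and Matk. The 6 others were Hmx3, a homeobox gene (r = 0.984), Strip2 (0.978), Whrn, which encodes the stereocilia scaffold whirlin (0.971), Xylb, xylulokinase (0.970), Pygl, a glycogen phosphorylase (0.966), and Tspan6, a tetraspanin (0.966). Hmx3 was at 1.57, 1.25 and 0.517 FPKM in Bcathet, at 0.974, 2.14 and 0.375 in Cdx2het_Bcathet, and at 1.51, 2.16 and 2.69 in Control. Whrn varied over a narrower range, from 6.31 to 9.00 FPKM in Bcathet, 5.93 to 9.29 in Cdx2het_Bcathet and 8.77 to 9.93 in Control. In all, 17 of the 36 tested genes of the wider list had r of at least 0.9, against 1.24% of all tested genes.

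Of 51 windows before the starts of 40 genes of the wider list, 7 (13.7%) held the octamer, against 1.6% of all windows. The genes were 1810046K07Rik, Hpgds, Itpr3, Kctd12, Ly6g6d, Nradd and Sucnr1. Their levels followed different patterns. Kctd12, Hpgds and 1810046K07Rik, whose windows are shown above, had r of 0.961, 0.950 and 0.913 with the markers' score. Itpr3, Ly6g6d and Nradd had r of −0.72, 0.146 and 0.226, and Sucnr1 did not pass the filter. Kctd12 was at 7.41, 4.89 and 1.71 FPKM in Bcathet, at 2.82, 7.33 and 1.19 in Cdx2het_Bcathet, and at 8.67, 12.3 and 15.2 in Control.

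Markers of blood cells were read beside these values, since Alox5ap, Ltc4s, Rgs13 and several kinases of the wider list are also expressed by leukocytes. Of 12 T cell markers, 10 were tested and none passed (limma, adjusted p = 0.228 to 0.876), where 0.645% of all genes were called lower and 0.513% higher. Of the 10, 1 had an unadjusted p under 0.05, against 2537 of the 12097 genes tested. All 10 fold changes were negative (median −0.67), against 50.3% of all genes tested. Their summed level was 33.5 to 127 FPKM in Bcathet, 31.0 to 121 in Cdx2het_Bcathet and 96.6 to 155 in Control, and the day-10 mutant libraries were the lowest, at 33.5 in Bcathet and 31.0 in Cdx2het_Bcathet, against 96.6 in day-10 Control. None of the 12 was at 0 throughout, and Cd8b1 and Cd2 stayed under 1 FPKM. Cd3e, which encodes part of the T cell receptor complex, stood at 0.526 FPKM in day-10 Bcathet and 0.306 in day-10 Cdx2het_Bcathet, against 2.19 in day-10 Control. The part of these cells in the marker values was not tested.

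Mast cell and macrophage markers were mixed, some near 0 and others at levels like those of the tuft cell genes. Cpa3, the mast cell carboxypeptidase, was at most 0.271 FPKM and Cma1, a chymase, was listed at 0 in every library. Mcpt1, a protease of mucosal mast cells named after its values were seen, was at 3.77, 4.41 and 0.398 FPKM in Bcathet, at 3.19, 5.41 and 0.796 in Cdx2het_Bcathet, and at 1.63, 10.2 and 3.88 in Control, so it was lowest in the day-10 mutant libraries. The 9 mast cell markers summed to 7.19 to 14.9 FPKM in Bcathet, 7.83 to 18.1 in Cdx2het_Bcathet and 9.80 to 22.0 in Control. The day-10 mutant libraries were again the lowest, at 7.19 in Bcathet and 7.83 in Cdx2het_Bcathet, against 13.9 in day-10 Control. Without the day-9 Cdx2het_Bcathet library, Kit, a receptor of mast cells and other cell types, fell by 0.61 ± 0.15 (limma, adjusted p = 0.047, with a range of 0.047 to 0.409 when each library was left out), where 3.61% of all genes were called lower. Of the 4 that were tested, Hdc, histidine decarboxylase, which enterochromaffin-like cells also express and which is named after its value was seen, rose by 1.403 ± 0.12 (limma, adjusted p = 0.00398), where 0.513% of all genes were called higher, and did not pass without the day-10 libraries (adjusted p = 0.113). Its Control libraries, at 0.220 to 0.565 FPKM, all lay under the filter's cut of 1 FPKM. Hdc therefore entered the test only through its mutant libraries, at 2.03 to 3.31 FPKM. Csf1r, the macrophage growth factor receptor, was at most 0.295 FPKM, whereas Cd68, a lysosomal protein of macrophages, was at 2.06 to 4.38 FPKM over the 9 libraries. The 9 macrophage markers summed to 7.17 to 17.7 FPKM in Bcathet, 6.89 to 13.6 in Cdx2het_Bcathet and 7.26 to 8.68 in Control. None of the 3 tested members passed (limma, lowest adjusted p = 0.37). Of these, 0 had an unadjusted p under 0.05, against 2537 of the 12097 genes tested. The day-10 sums of the 9 macrophage markers were 7.17 in Bcathet and 6.89 in Cdx2het_Bcathet, against 7.26 in day-10 Control. The part of mast cells and macrophages in the tuft marker values was not tested. The 6 B and plasma cell markers summed to at most 5.33 FPKM in any library.

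The markers of 2 other secretory lineages were read in the same way. The 10 enteroendocrine markers summed to 522, 344 and 252 FPKM at days 8, 9 and 10 in Bcathet, to 266, 458 and 277 in Cdx2het_Bcathet, and to 337, 329 and 322 in Control, and their median log2 fold change was 0.00 with 5 of 10 negative. In each mutant set the highest sum was in the library that was also highest for the tuft cell genes, day 8 in Bcathet and day 9 in Cdx2het_Bcathet, and all 10 day slopes in the mutant sets were negative (median −0.17 log2 units per day, against −0.38 for the 7 tuft cell genes), with none passing (limma, lowest adjusted p = 0.759; 0 with an unadjusted p under 0.05). Over all genes tested, 45.8% of day slopes in the mutant sets were negative, and 717 of 12097 had an unadjusted p under 0.05. The 8 goblet cell markers summed to 7642 to 8903 FPKM in Bcathet, 7838 to 10314 in Cdx2het_Bcathet and 7902 to 10163 in Control, with a median of −0.06. No enteroendocrine or goblet cell marker passed with all 9 libraries (limma, lowest adjusted p = 0.0541 and 0.0827). An unadjusted p under 0.05 was found for 2 and 1 of them, against 2537 of the 12097 genes tested. Without the day-9 Cdx2het_Bcathet library, the hormone gene Cck fell by 0.95 ± 0.15 (adjusted p = 0.0173, with a range of 0.0173 to 0.295 when each library was left out). In the same fit Tac1, which encodes substance P, rose by 0.60 ± 0.12 (adjusted p = 0.0299, range 0.0299 to 0.192), and the goblet cell gene Clca1 fell by 2.16 ± 0.40 (adjusted p = 0.0283, range 0.0283 to 0.25). Over all genes, that fit called 3.61% lower and 4.6% higher. A test of the difference between the tuft and the other lists was not made.

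**Figure D5:**
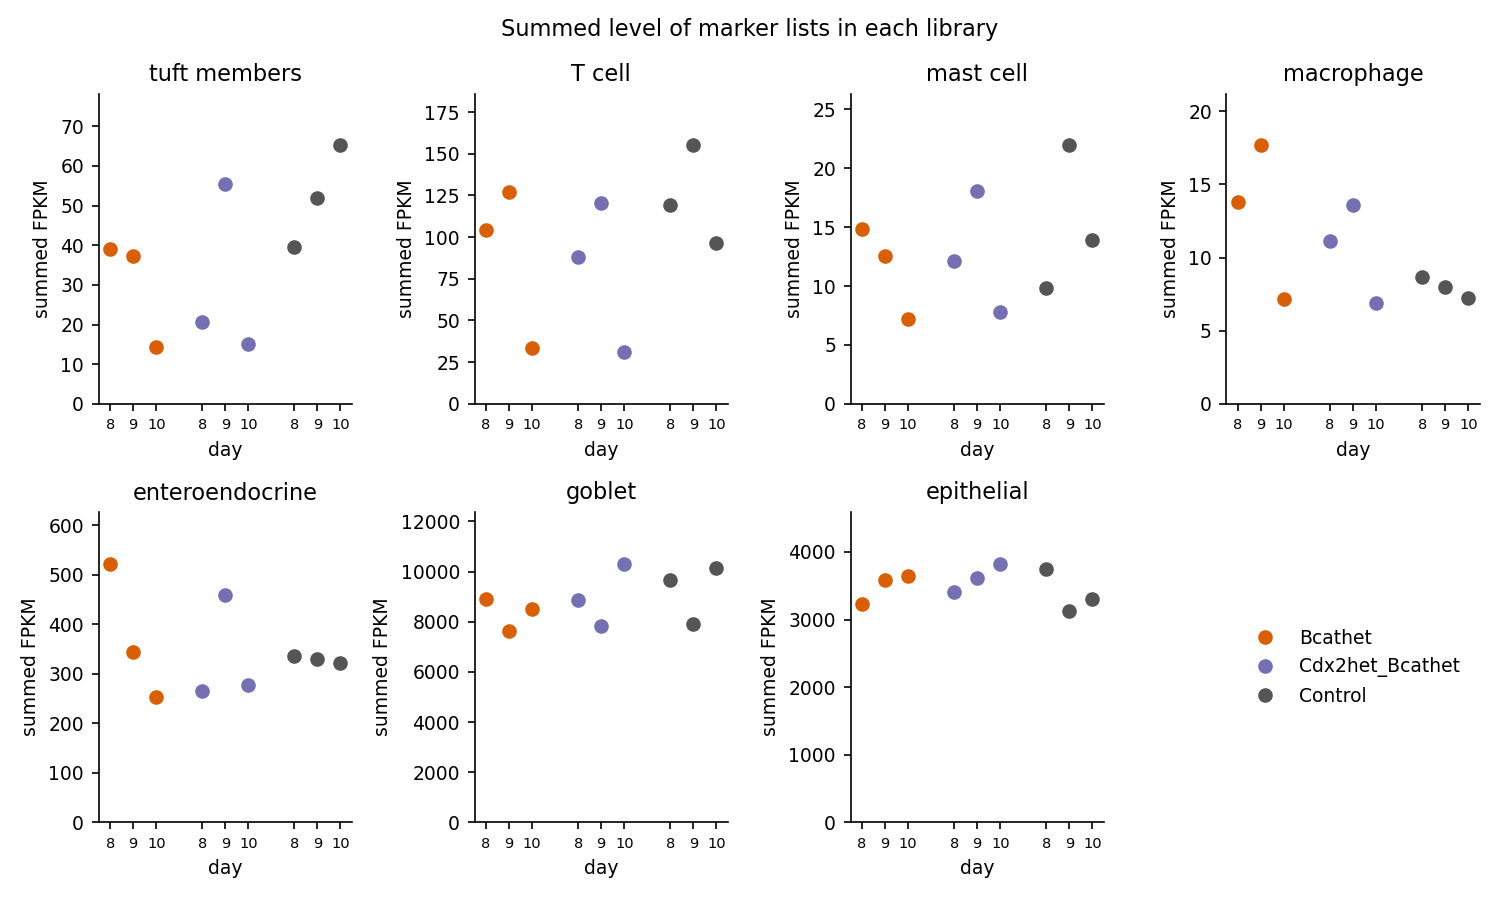
Summed FPKM of the tuft cell markers and of 6 other marker lists in each library, by day within the Bcathet, Cdx2het_Bcathet and Control groups, 1 point per library. The day-10 mutant points are the lowest for tuft, T cell, mast cell and macrophage markers, at 14.3, 33.5, 7.19 and 7.17 FPKM in Bcathet and 15.2, 31.0, 7.83 and 6.89 in Cdx2het_Bcathet, while epithelial markers lie between 3133 and 3826 FPKM in all 9 libraries. In the same order day-10 Control stands at 65.2, 96.6, 13.9 and 7.26 FPKM, so the macrophage sums are close to Control there.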

How the data were processed

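The authors deposited FPKM values, read as such from the values (the labels do not name the unit). Per the submitters' processing notes, kallisto 0.46.1, DESeq2 1.40.1 and genome build mm9 were used; their roles, the annotation and any filters were not given in sources used here. RNA was poly(A)-selected, per the labels' protocols. Samples were grouped by title.

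Genes under 1 FPKM in all but 2 or fewer libraries were dropped, which left 12097 of 24930. To these, limma 3.58.1 (R 4.3.3) was applied on log2(FPKM + 1) of all 9 libraries with group means and a shared moderated spread (trend and robust), and, for slopes, with day as a number. The Benjamini-Hochberg adjustment ran over all genes tested, at a threshold of 0.05. The script was tested on simulated data. Il25 was compared with scipy 1.17.1. Low values gave the fragments behind 1 FPKM (from 1800 single-transcript genes of 2000 bases or longer, GENCODE M21 lengths). Summed FPKM ran from 624923 to 755802 per library.

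Members, lists and tests were chosen with earlier results of these data known. Named were the 9 markers, several genes of the wider list (1 of them is not reported here), 4 cell type markers and the 6 genes of most similar pattern; others were named after their values were seen. Alternatives were a pseudocount of 0.1, no filter, equal totals, a day block, fits to the compared groups, and leaving out each library; leaving out all day-10 libraries was added after seeing the data.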

Additional observations from a re-analysis of the deposited data

Results flagged for a closer look

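Il25 was listed at 0 in 5 of the 6 mutant libraries and at 0.114 FPKM in the day-9 Cdx2het_Bcathet library. That value lay apart from the other mutant libraries by the whole range of the group. It corresponds to about 2.27 fragments. With the other 5 libraries tied at 0, any value above 0 would have stood apart in this way.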

How the results depend on the processing

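The number of tuft cell markers that passed was 0 of 7 in every comparison that could be fitted under the pseudocount of 0.1, no filter (where Il25 was also tested), equal totals, fits to the compared groups, and without day 10 (no slopes in the last pair). Leaving out each library in turn gave 0 to 1 passing markers for both mutant sets against Control and 0 to 1 for Cdx2het_Bcathet against Control. It gave 0 to 8 and 0 to 4 genes of the wider list in the same comparisons. Each highest count came from leaving out the day-9 Cdx2het_Bcathet library. All 7 markers kept a negative fold change for both sets, for each set against Control and for both slopes under every alternative run, while for Cdx2het_Bcathet minus Bcathet the sign differed from the one reported in 26 of 105 values. Without the day-10 libraries the median of the 7 was −0.28 for both sets against Control, and Hpgds changed sign to 0.0205. Hdc no longer passed there (adjusted p = 0.113); the cause was not tested.

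With day as a replicate block, 0 of 7 markers passed (lowest adjusted p = 0.19 for both sets against Control), and over all genes 48 were higher and 49 lower in that comparison, against 62 and 78 without the block. Libraries of the same day deviated from their group means together to a varying degree (r from −0.24 to 0.615 across genes), highest between the mutant sets at days 9 and 10. Not every same-day pair was above 0.1, and day was not used to pair the libraries in the main fits. Those fits therefore treated same-day mutant libraries as independent. Between the mutant sets r was −0.018 at day 8, 0.398 at day 9 and 0.615 at day 10. Over all genes in the same comparison, 42 were higher and 38 lower with no filter, 6 and 1 without day 10, and 12 to 557 and 4 to 437 when each library was left out. Depth limits Il25, and each group holds 1 library per day.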
